A study of Mus musculus with 8 samples.

Results

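Translation initiation factors outside eIF2 were taken from the gene table by symbol: every row starting with Eif1, Eif2b, Eif3, Eif4, Eif5 or Eif6, leaving out pseudogene rows and a few cap-binding and binding-protein genes. The rule gave 43 of 55291 genes: 5 of eIF2B, 14 of eIF3, 14 of eIF4 and 10 other factors. The data are RNA-seq of CD8+ T cells purified with a magnetic isolation kit from the spleens of naïve mice, in 4 libraries titled ATF4 overexpression (genotype label ATF4 Tg/Tg) and 4 labelled WT. The design text names the mice ATF4Tg/Tg and E8IcreATF4Tg/Tg. Whether the controls carry the transgene without the Cre is not stated, and WT is used here as the sample labels give it. E8I-Cre is driven by a Cd8a enhancer and acts in mature CD8+ T cells. The labels give no age, and they do not tie each library to a mouse of its own, so the tests rest on a spread among libraries that may be technical.

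Initiation brings the small ribosomal subunit, the initiator tRNA and an mRNA together at a start codon. eIF4 factors recognise the cap and unwind the leader, eIF3 scaffolds the small subunit, eIF1 and eIF1A guide start codon choice, eIF5 and eIF5B drive GTP hydrolysis and subunit joining, and eIF2B reloads eIF2 with GTP. In the integrated stress response, phosphorylated eIF2 inhibits eIF2B, general initiation slows and the ATF4 mRNA is translated more. Here the titles state ATF4 overexpression, ATF4 protein was not measured, and the comparison gives the mRNA levels of the initiation machinery in the labelled groups.

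Most initiation factor mRNAs did not pass the test between the groups, and those that did changed in both directions. Eif4e3, a cap-binding protein, rose 1.91-fold, and Eif3c, a core subunit of eIF3, rose 1.27-fold. Eif3e, Eif3h, Eif3k and Eif3m, core subunits of the same complex, fell to between 0.774 and 0.810 of their WT level, and Eif5a2, the minor eIF5A paralog, fell. No eIF2B subunit was called. Of the 43 members, 41 passed the low-count filter and were tested, and 2 were higher and 5 lower (edgeR, Benjamini-Hochberg adjusted p below 0.05 over all genes tested). Among all 16630 tested genes 9.16% were called higher and 4.89% lower, 14.1% either way. Among tested genes averaging 10 CPM or more (CPM, counts per 1000000 after TMM scaling), to which 39 members belong, the shares were 5.72% and 7.96%. At 17.1% called, the family as a whole was near these backgrounds. The groups did not overlap for 6 of the 41, against 22% of all tested genes and 20% of those averaging 10 CPM or more. The median log2 fold change of the family, -0.03, lay beside -0.02 for all tested genes and -0.06 for those averaging 10 CPM or more.

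**Figure D1:**
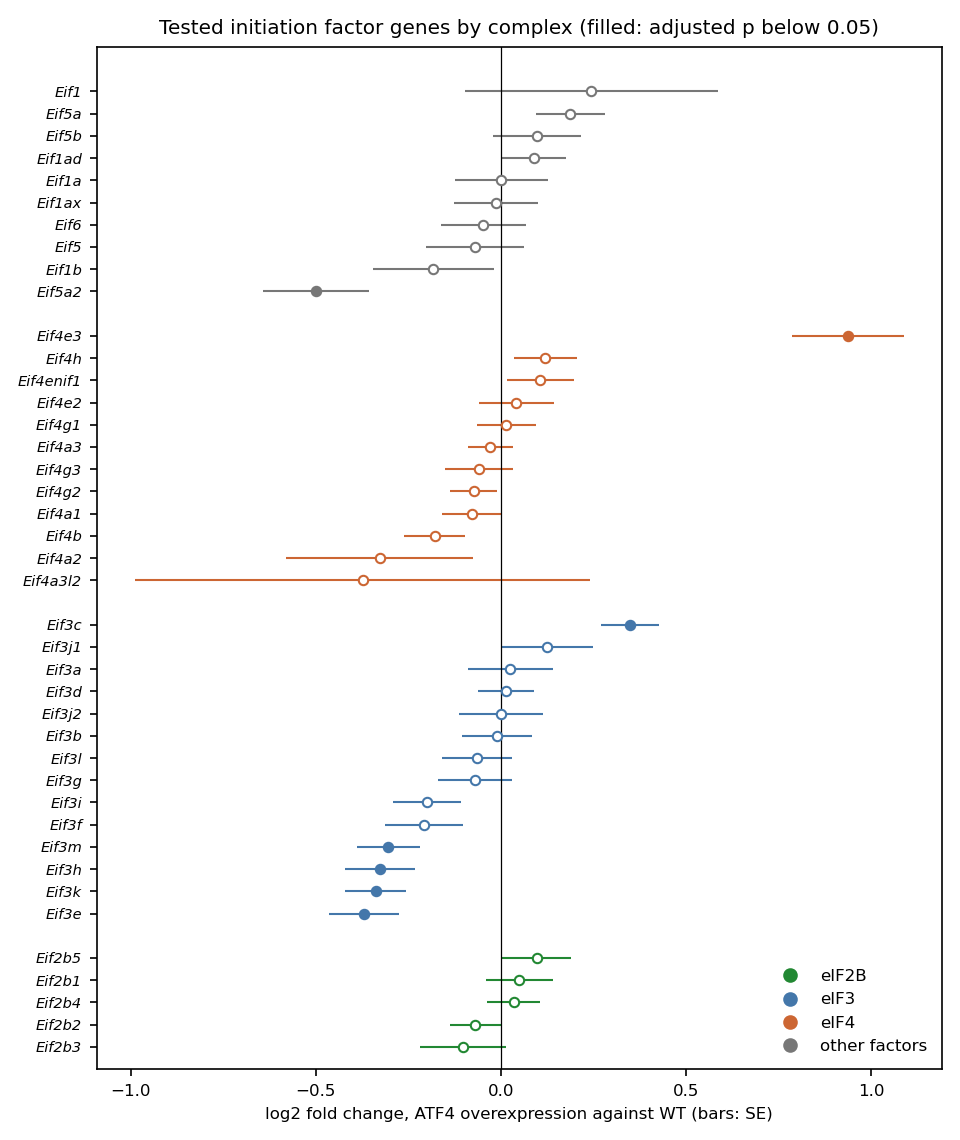
Log2 fold change of ATF4 overexpression against WT for each of the 41 tested initiation factor genes, grouped by complex (points; bars are SE, 4 libraries in each group; filled points have an adjusted p below 0.05). Eif4e3 stands at 0.94, and the filled eIF3 subunits lie on both sides of 0.

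Library totals ran from 93478686 to 125974143 estimated counts. Atf4, the gene of the transgene, was at 285, 308, 165 and 165 CPM in WT and 445, 427, 228 and 212 CPM in ATF4 overexpression (replicates 1 to 4), a log2 fold change of 0.51 ± 0.31 (SE) that did not pass the test (adjusted p = 0.37). With the replicate number as a block it was called (0.48, adjusted p = 2.2e-04). The spread is between replicates 1 and 2 and replicates 3 and 4 of each group, called library sets 1 and 2 here, whose column names are written differently. Leaving out 1 library at a time the log2 fold change of Atf4 was 0.32 to 0.67. Without the 4 libraries with few genes at low counts, which leaves the library sets unbalanced between the groups, it was -0.11 (adjusted p = 0.86). CD8 T cell markers were present in every library, with a sum over 7 genes of 5671 to 5958 CPM in WT and 4593 to 4668 CPM in ATF4 overexpression, and 5 of the 7 were lower. Markers of other cells were higher: B cells in 4 of 6 (summed 28.3 to 55.1 against 84.3 to 227 CPM), myeloid cells in 3 of 6 (16.6 to 68.8 against 95.0 to 225), erythroid cells in 4 of 6 (3.47 to 7.91 against 49.9 to 212), NK cells in 2 of 4 (12.1 to 44.5 against 69.3 to 162), platelets in 3 of 4 (3.37 to 4.22 against 7.26 to 15.5) and CD4 T cells in 3 of 4 (7.37 to 14.6 against 33.4 to 47.6). Proliferation genes were higher in 5 of 6 (85.0 to 126 against 243 to 604 CPM). None of these markers was at 0 in all libraries. Their part in the results on initiation factors was not tested, and fewer cells of a type and less RNA per cell cannot be told apart.

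eIF2B, the exchange factor that reloads eIF2, did not differ detectably between the groups in any subunit. It consists of the catalytic subunits Eif2b3 and Eif2b5 and the regulatory subunits Eif2b1, Eif2b2 and Eif2b4. Eif2b5, which carries the main exchange activity, was at 48.9, 57.7, 58.0 and 65.4 CPM in WT and at 58.8, 60.2, 60.6 and 66.3 CPM in ATF4 overexpression (log2 fold change 0.10 ± 0.09, adjusted p = 0.59). Eif2b3, its catalytic partner, was at 19.2, 14.8, 17.5 and 15.6 CPM in WT and 14.7, 14.6, 16.9 and 16.4 CPM in ATF4 overexpression (-0.10 ± 0.12, adjusted p = 0.67). In both genes the groups overlapped. Of the regulatory subunits, Eif2b2 was at 50.0, 54.6, 49.9 and 54.3 CPM in WT and 47.5, 51.9, 51.0 and 48.7 CPM in ATF4 overexpression. Eif2b1 was at 27.0, 25.6, 28.0 and 26.9 CPM in WT and 26.0, 25.9, 32.1 and 27.2 CPM in ATF4 overexpression. Eif2b4 averaged 30.8 ± 1.49 and 31.5 ± 0.693 CPM (SD, n = 4), and these 3 genes overlapped between groups as well. All 5 log2 fold changes lay between -0.10 and 0.10, with adjusted p-values of at least 0.59, and at least 0.22 with the replicate block. The substrate eIF2 is not part of this group, but its beta subunit gives a scale: Eif2s2 rose by 1.04 ± 0.06 on the log2 scale (116 ± 4.19 against 238 ± 9.36 CPM, adjusted p = 5.9e-06), while Eif2s1 and Eif2s3x had log2 fold changes of -0.07 and -0.08 and did not pass.

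eIF3 held most of the calls, and they fell among its core subunits. Of its 14 genes 1 was higher and 4 were lower, and all 14 were tested. The core is an octamer of subunits with a PCI or MPN fold, encoded by Eif3a, Eif3c, Eif3e, Eif3f, Eif3h, Eif3k, Eif3l and Eif3m. Of these 8 genes 5 were called, with a median log2 fold change of -0.26. Of the 6 peripheral genes (Eif3b, Eif3d, Eif3g, Eif3i, Eif3j1 and Eif3j2) 0 were called, with a median of -0.005. In this fit 14.1% of all tested genes were called either way, and 13.7% of those averaging 10 CPM or more. The split is not clean by size: peripheral Eif3i (-0.20) was close to core Eif3f (-0.21), and core Eif3a (0.03) and Eif3l (-0.06) were near 0. The grouping was chosen with earlier results of these data known. With the replicate block 1 core gene was higher and 5 were lower, and 1 peripheral gene, Eif3i, was lower (block log2 fold change -0.21, adjusted p = 0.031; 0.20 without the block). Under that fit 13.7% of all tested genes were called higher and 13.5% lower, and 10.7% and 22.8% of those averaging 10 CPM or more.

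Windows of 50 bases centred on the annotated transcription start are shown for the 6 core genes that have an entry in the RefSeq promoter table (GRCm38.p6), because called and uncalled core genes can be read side by side there. They run 5′ to 3′ on the gene's strand, 25 bases before the start and 25 after, and capitals mark the longest run of C and T. Runs of pyrimidines at the start of the transcript mark the TOP class of mRNAs, to which ribosomal protein mRNAs belong.
Eif3c, chr7:126566342-126566391, minus strand: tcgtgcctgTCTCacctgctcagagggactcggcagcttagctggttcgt
Eif3k, chr7:28981864-28981913, minus strand: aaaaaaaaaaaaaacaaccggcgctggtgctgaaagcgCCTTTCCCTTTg
Eif3m, chr2:105017003-105017052, minus strand: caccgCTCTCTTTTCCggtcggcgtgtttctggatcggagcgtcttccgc
Eif3f, chr7:108934390-108934439, plus strand: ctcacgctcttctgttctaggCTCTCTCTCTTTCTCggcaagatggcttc
Eif3l, chr15:79075198-79075247, plus strand: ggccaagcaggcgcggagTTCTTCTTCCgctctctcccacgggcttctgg
Eif3a, chr19:60790669-60790718, minus strand: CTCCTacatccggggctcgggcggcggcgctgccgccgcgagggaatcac

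The longest run was 4 bases for Eif3c and 5 for Eif3a, against 11 for Eif3k, 11 for Eif3m, 15 for Eif3f and 10 for Eif3l. Counted from the annotated start, the run began at -4 for Eif3f and -7 for Eif3l and crossed the start. Neither gene was called without the block. With the replicate block Eif3f was called (adjusted p = 0.0043) and Eif3l was not (adjusted p = 0.32). For Eif3c, Eif3a and Eif3m it began at -16, -25 and -20 and ended before the start, and for Eif3k it began at 14. Eif3e and Eif3h, both called lower, have no entry. A run of at least 8 bases was found in 19.7% of all 32851 windows of the table and in 9 of the 43 windows of the 32 members with an entry. Of the peripheral genes with an entry, Eif3b, Eif3d, Eif3g and Eif3j1 had longest runs of 5, 3, 6 and 4 bases. The annotated start need not be the start used in these cells, and a run is a description, not a site. The gene coordinates used elsewhere in the text come from another annotation, GENCODE, and differ in places. There the minus-strand Eif3a begins at 60790658, so its whole window lies before the gene. Eif3k begins at 28981864, the last base of its window, so the marked run lies before the gene as well. Eif3c and Eif3m, also on the minus strand, begin at 126566411 and 105017080, and plus-strand Eif3l begins at 79075179. The whole windows of these genes, with the marked runs, therefore lie inside the gene by GENCODE. Eif3f begins at 108934417, within its window. The binding sequence of ATF4 with its partners was searched as TGATGNAA on both strands over 250 bases before to 50 after the start. It had a match in 0 of these 43 windows, in 3.97% of all windows and in 2.32% of the windows of tested genes. No match says only that these letters are not in these windows.

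Eif3c, the core subunit that contacts eIF1 and eIF5 (chromosome 7, 126546455 to 126566411, minus strand, GRCm38), was the eIF3 gene that rose. It was at 253, 261, 267 and 293 CPM in WT and at 311, 330.1, 360.2 and 367 CPM in ATF4 overexpression. Every ATF4 overexpression library was above every WT library. Its log2 fold change of 0.35 ± 0.08 passed (adjusted p = 0.015), with 0.35 in set 1 and 0.38 in set 2. The call was lost without ATF4 overexpression replicate 4 (0.31, adjusted p = 0.052). Its window above has the shortest pyrimidine run of the 6 shown, a run that begins at -16 from the annotated start.

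Eif3e, a PCI subunit (chromosome 15, 43250058 to 43282719, minus strand), was at 384, 339, 388 and 360 CPM in WT and at 287, 239.5, 321 and 290.5 CPM in ATF4 overexpression. The groups did not overlap, and the log2 fold change was -0.37 ± 0.09 (adjusted p = 0.026). Reads of Eif3e can be shared with 4 pseudogene rows. With those rows added it was at 379 ± 22.1 CPM in WT against 293 ± 32.8 with ATF4 overexpression, still with no overlap. Eif3k, a small PCI subunit (chromosome 7, 28971372 to 28981864, minus strand), was at 168, 185, 178 and 195 CPM in WT and at 129, 138, 152 and 156 CPM in ATF4 overexpression. Again no ATF4 overexpression library reached the lowest WT library (-0.34 ± 0.08, adjusted p = 0.021).

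Eif3m, a further PCI subunit (chromosome 2, 104999656 to 105017080, minus strand), was at 188, 165, 184 and 174 CPM in WT and at 151, 127, 160.1 and 138 CPM in ATF4 overexpression. The groups did not overlap, though the lowest WT and the highest ATF4 overexpression library lay close together (-0.30 ± 0.08, adjusted p = 0.040). Eif3h, an MPN subunit outside the rule for genes given in full and named here after its values were seen, was at 379.3, 418, 435 and 461 CPM in WT and at 294, 322, 355 and 379.6 CPM in ATF4 overexpression. The groups met at 379.3 and 379.6 CPM, and its call was the closest to the threshold (-0.33 ± 0.09, adjusted p = 0.047). Eif3f, the other MPN subunit, was at 339.9 ± 34.5 CPM in WT against 294 ± 35.6 with ATF4 overexpression and did not pass (-0.21 ± 0.10, adjusted p = 0.24). It was called with the replicate block (-0.21, adjusted p = 0.0043), and in each replicate number ATF4 overexpression was the lower library.

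These falls were small. With the replicate block all 4 genes passed, with adjusted p of 6.0e-04 for Eif3e, 8.8e-04 for Eif3k, 0.0011 for Eif3m and 3.8e-04 for Eif3h. The labels do not say that libraries of the same number belong together. With the library set as the block the adjusted p-values were 0.0035, 0.0013, 0.011 and 0.0014 in the same order. Without the block, single libraries decided the calls, while the log2 fold changes stayed between -0.43 and -0.25. Leaving out 1 library at a time in that fit, the adjusted p ranged from 0.018 to 0.072 for Eif3e, from 0.026 to 0.064 for Eif3k, from 0.032 to 0.11 for Eif3m and from 0.036 to 0.12 for Eif3h. The call of Eif3e was lost when WT replicate 1, 3 or 4 was left out, and likewise replicate 1 or 4 of ATF4 overexpression. That of Eif3k was lost on leaving out WT replicate 2 or 4, or replicate 1 or 2 of ATF4 overexpression. Eif3m was lost except without WT replicate 2 or ATF4 overexpression replicate 3, and Eif3h except without WT replicate 1 or ATF4 overexpression replicate 4. With all 8 libraries kept, Eif3h was lost with RLE scaling (adjusted p = 0.053), upper-quartile scaling (0.075) and no low-count filter (0.053). Eif3m was lost with upper-quartile scaling (0.052) and no filter (0.053). Eif3e and Eif3k kept their calls in these settings. The log2 fold changes of these 4 genes were between -0.42 and -0.31 in set 1 and between -0.29 and -0.26 in set 2. Eif3e and Eif3k were called in both sets. Eif3h was called in set 2 (adjusted p = 0.024) and not in set 1 (0.065), and Eif3m in neither (0.12 in set 1 and 0.073 in set 2). Without the 4 libraries with few low counts all 4 calls were lost, with log2 fold changes between -0.25 and -0.22. That setting leaves WT replicates 2 and 3 against ATF4 overexpression replicates 3 and 4, so the library sets are unbalanced between the groups. The fall of CD8 T cell markers given above (median -0.26) was of similar size, and its part in these values was not tested.

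**Figure D2:**
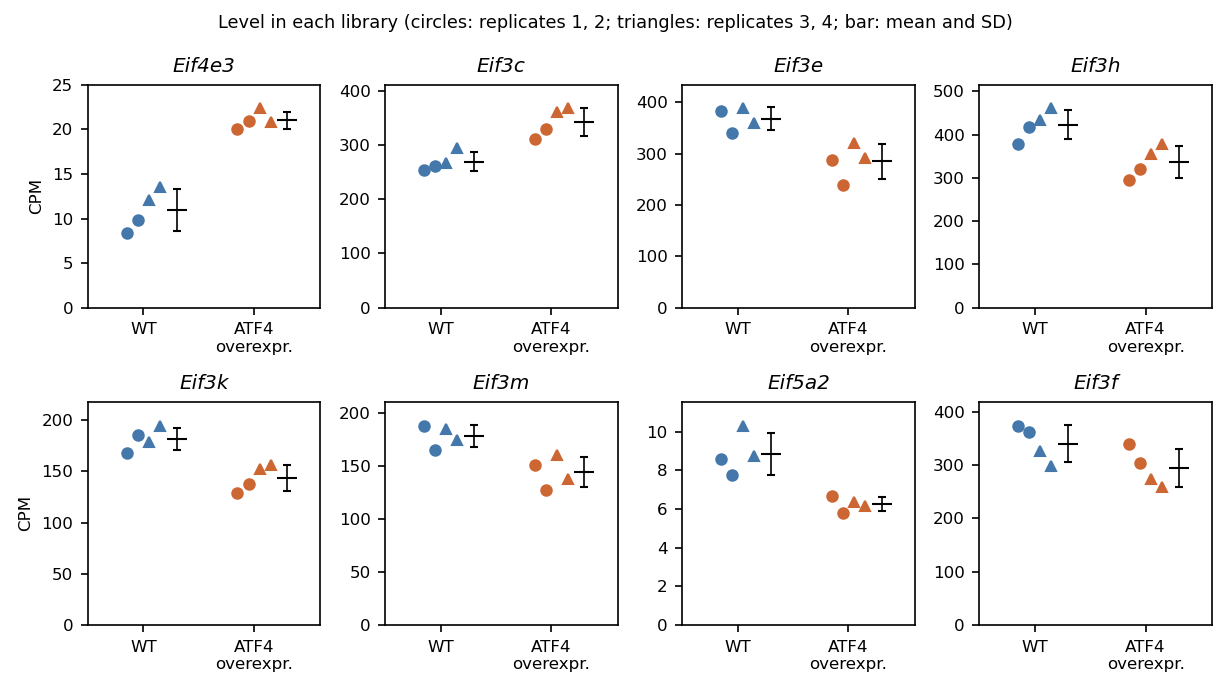
CPM in each library for the 7 called members and Eif3f (circles, replicates 1 and 2; triangles, replicates 3 and 4; bars, mean and SD of 4 libraries). The groups are apart for Eif4e3, Eif3c, Eif3e, Eif3k, Eif3m and Eif5a2, meet for Eif3h and overlap for Eif3f.

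The remaining eIF3 genes gave no call. Eif3a, the largest subunit and the backbone of the complex, was at 498 ± 59.5 CPM in WT against 507 ± 68.1 with ATF4 overexpression, and Eif3l, a PCI subunit, at 167 ± 10.2 and 159 ± 19.4 CPM. Eif3d, which can bind the cap of some mRNAs, was at 162 ± 4.85 and 163 ± 14.4 CPM, and Eif3b, a scaffold of the peripheral module, at 185 ± 17.0 and 184 ± 18.8 CPM. Eif3g and Eif3i, which bind Eif3b, had log2 fold changes of -0.07 ± 0.10 and -0.20 ± 0.09. Eif3j1 and Eif3j2 encode near-identical forms of the loosely bound subunit j. Eif3j1 was at 36.2, 39.0, 48.6 and 51.8 CPM in WT and 42.7, 48.3, 46.7 and 53.7 CPM in ATF4 overexpression. Eif3j2 was at 37.1, 39.9, 45.0 and 45.4 CPM in WT and 41.2, 34.1, 45.8 and 46.4 CPM in ATF4 overexpression. Both overlapped between groups, with log2 fold changes of 0.12 ± 0.12 and 0.00 ± 0.11, and their reads are divided by a model, so either value may hold reads of the other gene.

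Among eIF4 genes, Eif4e3 alone was called of 12 tested in the fit without the block. Eif4e3 encodes a divergent member of the cap-binding protein family (chromosome 6, 99625135 to 99666771, minus strand). It was at 8.38, 9.84, 12.1 and 13.6 CPM in WT and at 20.04, 20.9, 22.4 and 20.8 CPM in ATF4 overexpression. Every ATF4 overexpression library was above every WT library, and WT was higher in set 2 than in set 1. Its log2 fold change was 0.94 ± 0.15 overall (adjusted p = 0.0028), 1.20 in set 1 and 0.75 in set 2, a difference between the sets that did not pass the test (interaction, adjusted p = 0.36). The call held without any 1 library (adjusted p between 0.0029 and 0.012) and without the 4 libraries with few low counts (0.97, adjusted p = 0.022). Its exons share 373 bases with Gm20696, which lies on the same strand and averaged 0.640 ± 0.534 and 0.774 ± 0.744 CPM.

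Eif4e2, the cap-binding repressor that works with Gigyf2, did not pass. It was at 79.6, 86.2, 101 and 106 CPM in WT and at 89.1, 97.1, 93.0 and 105 CPM in ATF4 overexpression (0.04 ± 0.10, adjusted p = 0.86). Per kb of merged exons Eif4e2 was 2.85 times as abundant as Eif4e3 in WT and 1.53 times in ATF4 overexpression. The log2 ratio of Eif4e3 to Eif4e2 in a library was -3.10 ± 0.12 in WT and -2.19 ± 0.12 in ATF4 overexpression (SD, n = 4), with no overlap. An exact two-sided permutation test of this ratio gave p = 0.029, the smallest that 4 against 4 allows, and 0.10 when adjusted over the 7 paralog pairs compared. The adjusted value could not fall below 0.05 unless most of the 7 pairs reached that smallest p, so it cannot decide on a single pair. Eif4e1b, a family member of oocytes, had 0 counts in all 8 libraries, which allows up to 3 counts in each (0.0240 to 0.0339 CPM). It was not tested.

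The scaffolds that join the cap-binding protein to eIF3 gave no call. Eif4g1 was at 431, 463, 456 and 488 CPM in WT and at 416, 451, 476 and 515 CPM in ATF4 overexpression (0.02 ± 0.08, adjusted p = 0.94). Its paralog Eif4g3 was at 278, 323, 263 and 294 CPM in WT and at 272, 313, 246 and 282 CPM in ATF4 overexpression (-0.06 ± 0.09, adjusted p = 0.77). In both the groups overlapped almost wholly. Eif4g2, the scaffold that lacks the cap-binding partner site, was at 963 ± 45.4 and 915 ± 23.7 CPM (-0.07 ± 0.06, adjusted p = 0.54). Eif4enif1, which carries cap-binding protein into the nucleus and represses mRNAs, had a log2 fold change of 0.11 ± 0.09 (adjusted p = 0.54).

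Of the helicase genes, Eif4a2 differed more between library sets than between groups. Eif4a2, the helicase paralog with roles in repression by miRNAs, was at 1316, 1338, 762 and 747 CPM in WT and at 1043, 993, 648 and 634 CPM in ATF4 overexpression. Within each set ATF4 overexpression was lower in every library, while both libraries of set 1 with ATF4 overexpression were above the WT libraries of set 2. Its log2 fold change of -0.33 ± 0.25 did not pass (adjusted p = 0.49). With the replicate block it was -0.31 (adjusted p = 0.0011), and each set alone gave a call, at -0.35 in set 1 (adjusted p = 0.034) and -0.23 in set 2 (adjusted p = 0.029). Several small nucleolar RNAs lie within Eif4a2, and Rfc4 overlaps it on the other strand by 194 exonic bases. Eif4a1, the main helicase, was at 732, 700, 649 and 607 CPM in WT and at 653, 588, 677 and 626 CPM in ATF4 overexpression, with overlapping groups (-0.08 ± 0.08, adjusted p = 0.61).

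Eif4b and Eif4h stimulate the helicase. Eif4b was at 581, 640, 622 and 686 CPM in WT and at 510, 533, 569 and 621 CPM in ATF4 overexpression. The groups overlapped, but ATF4 overexpression was lower at each replicate number, and the gene passed with the replicate block (-0.18, adjusted p = 0.0092) and not without it (-0.18 ± 0.08, adjusted p = 0.20). Eif4h was at 182, 177, 198 and 195 CPM in WT and at 191, 183, 230 and 212 CPM in ATF4 overexpression (0.12 ± 0.09, adjusted p = 0.44). Eif4a3, a helicase of the exon junction complex, was at 105 ± 2.33 and 103 ± 4.67 CPM. Its copies Eif4a3l2 and Eif4a3l1 were at most 1.11 and 0.0801 CPM in any library, Eif4a3l2 tested with no call and Eif4a3l1 not tested.

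**Figure D3:**
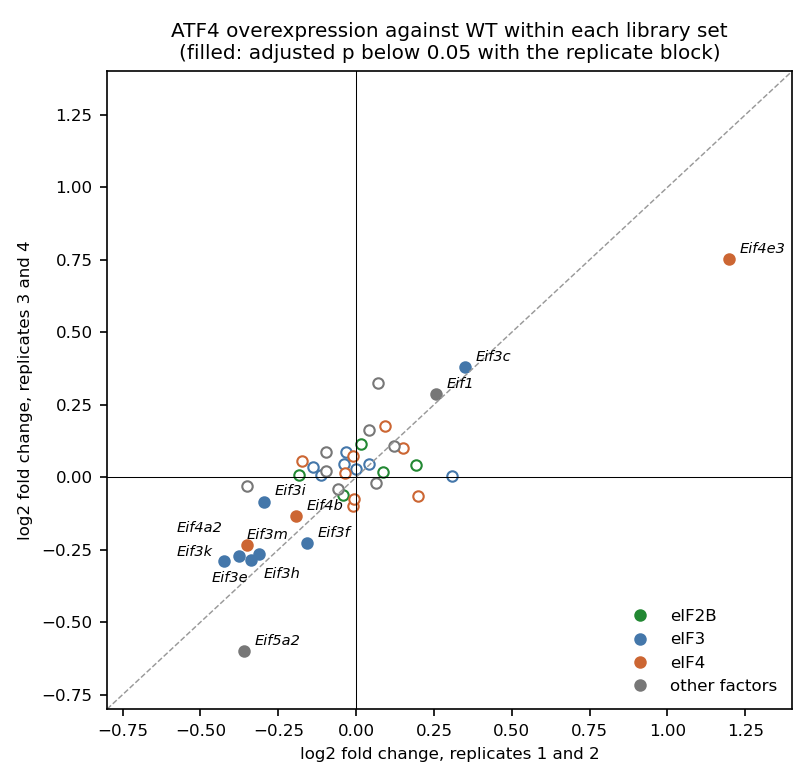
Log2 fold change of ATF4 overexpression against WT within library set 1 (replicates 1 and 2, x axis) and set 2 (replicates 3 and 4, y axis) for tested initiation factors with a mean of at least 1 CPM. Filled points passed with the replicate block (adjusted p below 0.05). All of them lie on the same side of 0 in both sets. The blocked test used the same libraries and favours such genes, so this is no separate check. The dashed line marks equal values.

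In all, 3 members were called higher and 9 lower when the replicate number was a block, 29.3% of those tested, beside 27.2% of all tested genes and 33.5% of those averaging 10 CPM or more. The members that passed there and not in the fit without a block were Eif1, higher, and Eif3f, Eif3i, Eif4a2 and Eif4b, lower. All of them passed with the library set as the block too (adjusted p between 0.0011 and 0.044). No member passed the test of a different genotype effect in the 2 sets (interaction, adjusted p of at least 0.25, the lowest being that of Eif5a), and 0.998% of all tested genes did. Fitted within set 1 alone, 2 members were higher and 3 lower, where 9.82% of tested genes were called either way. Within set 2 alone, 3 were higher and 5 lower, where 22.3% were.

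Among the other factors, Eif5a2 was the gene called. eIF5A carries the modified residue hypusine and helps ribosomes past slow peptide bonds, and Eif5a2 is its minor, tissue-restricted paralog (chromosome 3, 28781276 to 28798846, plus strand). Eif5a2 was at 8.59, 7.77, 10.3 and 8.72 CPM in WT and at 6.68, 5.79, 6.38 and 6.17 CPM in ATF4 overexpression, with no overlap. Its log2 fold change was -0.50 ± 0.14 (adjusted p = 0.044), a call lost without any 1 of the 8 libraries (adjusted p between 0.053 and 0.14). Eif5a was at 378, 417, 407 and 405 CPM in WT and at 396, 419, 504 and 511 CPM in ATF4 overexpression, where the libraries of set 2 stood above all others. It did not pass (0.19 ± 0.09, adjusted p = 0.24), and within set 2 it did (0.32, adjusted p = 0.0084; 0.07 in set 1, adjusted p = 0.73). Per kb of merged exons Eif5a was 96.0 times as abundant as Eif5a2 in WT and 155 times in ATF4 overexpression. The log2 ratio of Eif5a2 to Eif5a was -5.51 ± 0.18 in WT and -6.19 ± 0.21 in ATF4 overexpression, without overlap (exact permutation p = 0.029, 0.10 over the 7 pairs).

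Eif1, which keeps the ribosome scanning until a start codon is met, varied mainly with the library set. It was at 747, 663, 379 and 322 CPM in WT and at 886, 761, 463 and 391 CPM in ATF4 overexpression. Set 1 was above set 2 by 1.01 on the log2 scale in WT and by 0.95 in ATF4 overexpression, and ATF4 overexpression was the higher library at each replicate number. It was called with the replicate block (0.25, adjusted p = 0.0012) and not without it (0.24 ± 0.34, adjusted p = 0.74). Without the 4 libraries with few low counts, which leaves a single library of set 1, the log2 fold change was -0.29 (adjusted p = 0.56). Eif1b, its paralog, was at 32.8, 38.7, 44.2 and 40.5 CPM in WT and at 28.5, 26.2, 41.0 and 41.9 CPM in ATF4 overexpression, with overlapping groups (-0.18 ± 0.16, adjusted p = 0.57). Atf4 had the same order of library sets as Eif1.

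Eif1a and Eif1ax, autosomal and X-linked genes of eIF1A, were almost equal. Eif1a was at 44.0, 38.9, 54.8 and 50.9 CPM in WT and at 42.2, 42.5, 54.7 and 49.5 CPM in ATF4 overexpression (0.00 ± 0.13). Eif1ax was at 56.7, 53.9, 61.8 and 63.3 CPM in WT and at 49.9, 51.1, 67.2 and 65.6 CPM in ATF4 overexpression (-0.01 ± 0.11). Neither passed, and per kb of merged exons they were at 11.3 ± 1.70 and 11.2 ± 0.84 CPM in WT. Eif1ad, a relative of eIF1A, was at 57.2, 55.9, 59.3 and 59.1 CPM in WT and at 62.2, 51.6, 67.4 and 65.0 CPM in ATF4 overexpression (0.09 ± 0.09, adjusted p = 0.61). Eif5, the GTPase activator of eIF2, was at 445 ± 72.7 and 424 ± 60.5 CPM, and Eif5b, the GTPase of subunit joining, at 155 ± 16.9 and 166 ± 25.7 CPM. Eif6, which keeps the large ribosomal subunit from joining early, was at 59.7 ± 5.41 and 57.8 ± 8.90 CPM. Annotated exons of these factors overlap genes on the other strand in places, with 1643 bases shared by Eif5b and Rev1 and 428 by Eif1ad and Banf1, and the strand setting of the counts is not given in the labels. Log2 fold changes of Eif5, Eif5b and Eif6 were -0.07 ± 0.13, 0.10 ± 0.12 and -0.05 ± 0.11, and none passed (adjusted p of at least 0.70).

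**Figure D4:**
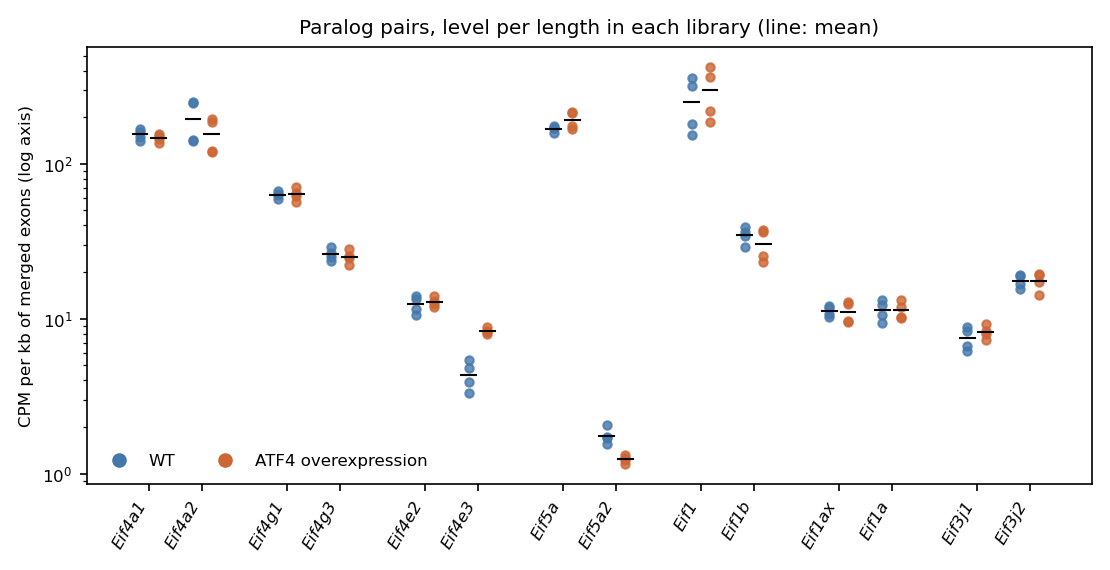
CPM per kb of merged exons (log axis) in each library for 7 pairs of paralogs, WT and ATF4 overexpression side by side (points; lines are means of 4 libraries). Eif5a lies 96.0-fold above Eif5a2 in WT, and the points of Eif4e3 move towards those of Eif4e2 in ATF4 overexpression.

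Of the 7 paralog pairs, the exact permutation test reached its smallest p for the pairs of Eif4e3 and Eif5a2. Both genes were already called above in the same libraries, so their ratios are no separate test. The permutations took no account of the library set. The other 5 pairs overlapped between groups, with p between 0.29 and 0.74 and differences in log2 ratio between -0.46 (Eif1b to Eif1) and 0.03 (Eif1a to Eif1ax). Across eIF3, WT levels ranged from 7.53 ± 1.28 CPM per kb of merged exons for Eif3j1 to 262 ± 21.2 for Eif3h. Lengths are those of all annotated exons merged, which understates genes with long alternative exons.

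Regulators and partners of initiation outside the family were taken as a list of 25 genes, all tested. Of these 0 were higher and 1 was lower (5 had an unadjusted p below 0.05), where 14.1% of all tested genes were called either way, with a median log2 fold change of -0.04. Ddx6, a helicase of mRNA decay bodies that represses translation, was at 628, 574, 595 and 601 CPM in WT and 501, 463, 493 and 470.2 CPM in ATF4 overexpression. It fell without overlap (-0.32 ± 0.06, adjusted p = 0.0079). The call was lost without the 4 libraries with few low counts (-0.28, adjusted p = 0.14) and within set 1 (-0.29, adjusted p = 0.087). Paip1 and Paip2b, which bind poly(A)-binding protein, had log2 fold changes of -0.21 ± 0.07 and -0.30 ± 0.10 (adjusted p = 0.080 and 0.076). Pdcd4, an inhibitor of the eIF4A helicase, was at 435 ± 42.0 and 375 ± 17.3 CPM (-0.21 ± 0.08, adjusted p = 0.12). Among those with positive values, Ctif, a scaffold of the nuclear cap-binding complex, was at 1.77 ± 0.252 and 2.77 ± 0.415 CPM (0.64 ± 0.24, adjusted p = 0.11) and was called by DESeq2 (adjusted p = 0.024). Larp1, which represses TOP mRNAs, Pabpc4, a poly(A)-binding protein, and Mknk2, a kinase of the cap-binding protein, had log2 fold changes of 0.14, 0.16 and 0.05. With the replicate block 1 of the list was higher (Larp1, adjusted p = 0.027) and 6 were lower: Ddx6, Paip1, Paip2b, Pdcd4, Abce1 and Gigyf1. That share of 28% is near the 27.2% of all tested genes called in that fit and the 33.5% of those averaging 10 CPM or more. Pabpc1, the main poly(A)-binding protein and itself a TOP mRNA, was at 2054 ± 155 and 1999 ± 202 CPM (-0.04 ± 0.09, adjusted p = 0.85).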

How the data were processed

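The values the authors deposited are estimated counts by gene symbol; Salmon 1.4.0 and GRCm38 p6 are named in the submitters' processing notes. Annotation release, strand setting and filters: not given in the sources used here. Salmon divides reads shared between genes by a model: 27 of the 43 members had whole counts (within 0.001) in all 8 libraries, and the others had fractional counts in some. Columns were matched to samples by library name, with 0 unused. Libraries of a group differed by a chi-square per degree of freedom of at least 38.5, so none was counted as a repeat. Counts of amplified libraries are not independent molecules, and floors of 3 counts cover counting error only.

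Rounded counts went into edgeR 4.0.16 (R 4.3.3), quasi-likelihood F test (TMM, filterByExpr, robust dispersions, group as the only term) over 16630 genes of 55291. On simulated data of 4 against 4 libraries it called 11 of 67 genes given a log2 change of 0.5 in size. It called 31 of 67 given 1, 42 of 57 given 2, and 2 of 15833 given none. Small true differences can therefore go uncalled. The changed genes were drawn from all tested genes of any level, and no difference between library sets was simulated. These shares need not hold for the members. Standard errors come from the F statistic. Deviations from group means of same-numbered samples correlated at 0.20 to 0.29 for all 4 numbers, which meets the rule for treating the numbers as pairs. Samples with different numbers in the same library set correlated about as much (0.16 to 0.25), and across sets at -0.27 to -0.16, so the correlation follows the set as much as the number. Values with the replicate number as a block are given where they change a call. Alternatives were DESeq2 1.42.0, limma-voom (limma 3.58.1), other scaling and filters, library sets, libraries left out, and, added after seeing the data, leaving out the 4 libraries with few genes at 1 to 5 counts (WT replicates 1 and 4, ATF4 overexpression replicates 1 and 2; 998 to 1215 genes, against 1752 to 2185).

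Members, lists and complexes were chosen with earlier results of these data known. Given in full were up to 4 tested members of each complex with the smallest p and both members of 7 paralog pairs, and of the partner list up to 4 genes in each direction; other members are given by means or ranges, and Eif3h, Eif3f and Eif3i were named after their values were seen. Coordinates and exon lengths are from GENCODE M21 (GRCm38), counted from 1. Promoter windows are from RefSeq and matched 32 members by symbol.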

Additional observations from a re-analysis of the deposited data

How the results depend on the processing

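Depth limits few members, since 39 of 41 average 10 CPM or more, while the spread between libraries limits small differences. In the settings run on all 8 libraries, 2 members were called higher, or 3 with either block. Members called lower, 5 in all and 4 in eIF3, became 2 and 2 with upper-quartile factors and without a low-count filter, 3 and 2 within set 1, and 0 and 0 without the 4 libraries with few low counts. With the replicate block, and with the library set as the block, 9 members were lower, among them 2 of eIF4 where 0 were before, and 1 other factor was higher where 0 were before; that last count was also 1 within set 2. Within each set 1 eIF4 member was lower. With RLE factors 4 members were lower, with the call of Eif3h lost. The single lower call among other factors became 0 with upper-quartile factors, without a filter, within set 1 and without the 4 libraries. Of the partner genes, 1 was higher with DESeq2, the replicate block and within set 2, and 6 were lower with the replicate block or the library set as the block, 4 within set 2, 0 within set 1 and 0 without the 4 libraries. Leaving out 1 library at a time, members higher ranged from 1 to 2 (eIF3 from 0 to 1), members lower from 0 to 3 (eIF3 from 0 to 3, other factors 0 to 0) and partner genes lower from 1 to 2. The cause of these changes was not tested. No eIF2B subunit was called under any setting run. Over 51 single genes and all settings, 968 values in all, 48 lost and 29 gained a call and 0 reversed a call, and 71 of 768 values with no call either way had another sign. Under the 4 scalings (TMM, RLE, upper-quartile and DESeq2) the median over all genes lay between -0.02 and 0.02. The TMM factors did not overlap between the groups, at 0.930 to 0.983 in WT and 1.02 to 1.07 in ATF4 overexpression. Compared with plain library totals, they lower every gene in ATF4 overexpression. A fit on plain totals was not run.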
